A study of Mus musculus with 2 samples.

Results

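The genes described here carry glucose into cells, break it down to pyruvate and lactate, move lactate and pyruvate across membranes, admit pyruvate to the mitochondrion, and store glucose as glycogen. They are a list of 41 genes chosen by symbol for these functions, of 55536 annotated genes, and all 41 were found. Expression was measured by sequencing total RNA of left cerebral cortex taken at 25 days of age from male mice of B6CASTF1/J, the F1 hybrid strain bred from C57BL/6J and CAST/EiJ parents. The 2 libraries form 1 group, biological replicates 1 and 2, each made from 300 ng of RNA with ERCC spike-in RNA added and ribosomal RNA reduced. No genotype or treatment distinguishes the samples, so no test between groups is possible. Both carry the same donor entry in the labels; the text takes them for 2 mice because their biobank numbers differ, and each SD given as ± below is over n = 2 on that assumption. The tissue is bulk cortex, in which fewer cells of a type and less RNA per cell cannot be told apart, and reads of the hybrid were quantified against the mm10 reference.

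In the cytosol, glycolysis phosphorylates glucose, splits it into triose phosphates and ends with pyruvate, which lactate dehydrogenase interconverts with lactate. Monocarboxylate transporters carry lactate between cells, and the mitochondrial pyruvate carrier and the pyruvate dehydrogenase complex lead pyruvate into the citric acid cycle. In brain, several steps have isoenzymes typical of different cells, such as the neuronal enolase Eno2 and the astrocytic aldolase Aldoc, and most glycogen is held in astrocytes.

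Pyruvate kinase makes pyruvate, and its gene Pkm gives rise to the M1 and M2 forms by including either of a pair of alternative exons. Pkm lies on the plus strand of chromosome 9 (mm10, chr9:59656368-59679375). The upstream alternative exon, exon 9 of transcript Pkm-202 (chr9:59675029-59675195), makes the M1 form, and the downstream one, exon 9 of transcript Pkm-201 (chr9:59675568-59675734), makes the M2 form. Both are coding and 167 bases long, and 103 of the 167 positions hold the same base (61.7%). They are printed because the transcript shares given further on concern these 2 exons, with capitals marking the 64 positions that differ, read from the GENCODE M21 transcripts.
Pkm-202 exon 9: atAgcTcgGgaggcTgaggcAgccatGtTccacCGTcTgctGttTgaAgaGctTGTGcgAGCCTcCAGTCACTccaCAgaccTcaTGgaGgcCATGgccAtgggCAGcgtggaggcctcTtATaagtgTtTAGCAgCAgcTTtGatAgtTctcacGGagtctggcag
Pkm-201 exon 9: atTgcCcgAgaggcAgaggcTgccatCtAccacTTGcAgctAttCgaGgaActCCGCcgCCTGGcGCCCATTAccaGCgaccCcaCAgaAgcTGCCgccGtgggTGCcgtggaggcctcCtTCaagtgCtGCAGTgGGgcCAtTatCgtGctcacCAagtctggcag
Hk1 encodes the hexokinase that phosphorylates glucose in brain. It lies on the minus strand of chromosome 10 (chr10:62268855-62379908), and its transcripts with the largest shares begin their coding sequence in different exons. The coding start of Hk1-202 (chr10:62340013-62340075) encodes the hydrophobic end by which hexokinase 1 binds the outer mitochondrial membrane. That of Hk1-205 lies at chr10:62342501-62342560, and that of Hk1-201 is joined from separate exons within chr10:62353058-62358362. These starts are printed because the coding sequences begin differently there, with the start codon in capitals. The transcripts also differ outside these starts, with lengths of 4278 bases for Hk1-202, 2916 for Hk1-205 and 3639 for Hk1-201.
Hk1-202 coding start: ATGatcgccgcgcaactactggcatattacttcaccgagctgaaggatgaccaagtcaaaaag
Hk1-205 coding start: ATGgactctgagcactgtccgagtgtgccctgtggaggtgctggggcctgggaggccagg
Hk1-201 coding start: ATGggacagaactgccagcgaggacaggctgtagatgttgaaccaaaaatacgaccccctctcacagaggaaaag

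The libraries held 30503944 expected counts in replicate 1 and 33263801 in replicate 2, and 14744 annotated genes reached 1 TPM in both. TPM is a level scaled by transcript length and library total, so levels of different genes may be compared. All 5 neuronal, 6 astrocyte and 5 microglial marker genes were detected, while of 4 skeletal muscle markers Ckm, Myh4 and Tnnt3 stayed under 1 TPM and Acta1 had 5.05 and 6.07 TPM. The animals differed in some marker lists. The 6 oligodendrocyte markers summed to 867.2 TPM in replicate 1 and 1160 TPM in replicate 2, and the 5 choroid plexus markers to 22 and 198.9 TPM, led by Ttr at 19.5 and 191.9 TPM. The 5 immediate early genes summed to 407.8 and 239.3 TPM, the 5 glucocorticoid-responsive genes to 239.7 and 176.9 TPM, and the 5 red blood cell genes to 1030 and 727.2 TPM. The part of these differences in the values below was not tested.

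All 41 genes reached 1 TPM in both animals, with at least 60 expected counts in each library. Their median level was 69.5 TPM over the mean of the animals, against 13.3 TPM for all genes detected in both. Of the 41, 17 exceeded 100 TPM, 6 lay under 10 TPM, and 17 were among the 1000 genes of highest level. Together they made up 0.682% of all TPM in replicate 1 and 0.695% in replicate 2, or 1.30% and 1.35% once mitochondrial, structural small RNA and spike-in rows were left out. By function, over the mean of the animals, the 9 genes from aldolase to pyruvate kinase had a median of 344.7 TPM, the 6 lactate genes 110.7 TPM, the 8 upper glycolytic genes 89.4 TPM, the 11 pyruvate genes 54.0 TPM and the 6 glycogen genes 9.75 TPM.

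**Figure D1:**
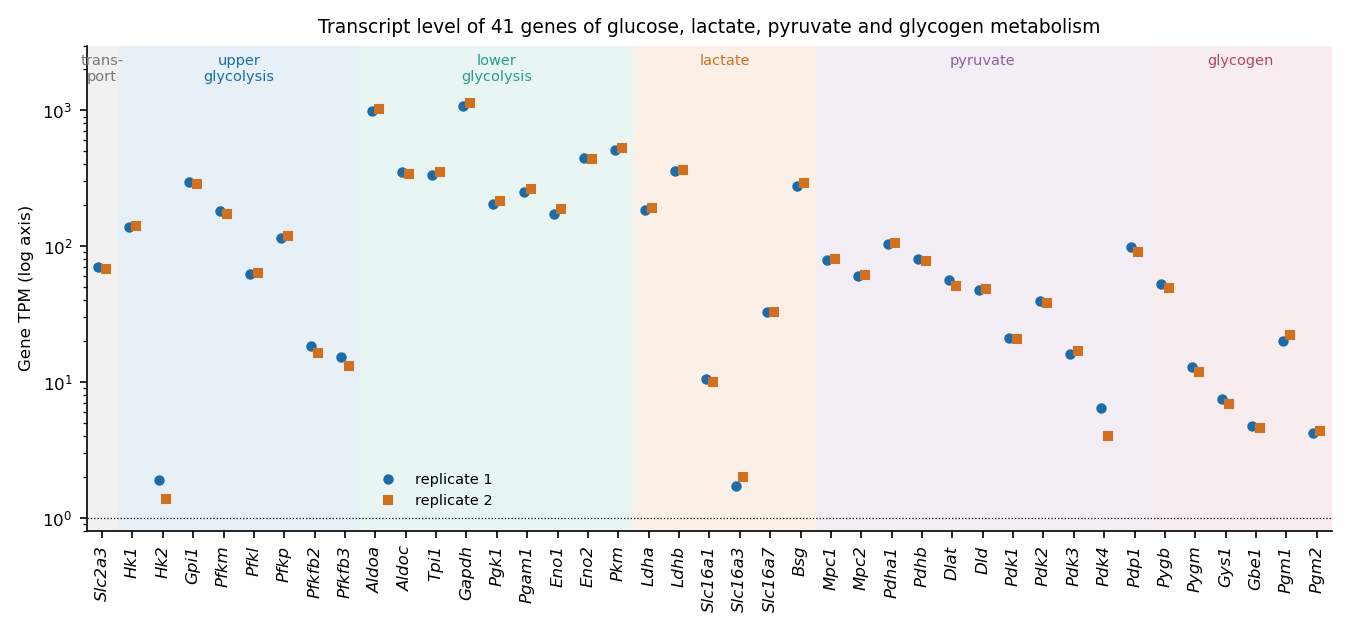
Gene TPM (log axis) of the 41 genes in replicate 1 (circles) and replicate 2 (squares), grouped by function; the dotted line marks 1 TPM. Gapdh and Aldoa lie near 1000 TPM in both animals, Hk2 and Slc16a3 near the detection line, and for most genes the symbols almost coincide.

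Slc2a3, the neuronal glucose transporter GLUT3, had 70.7 TPM in replicate 1 and 68.3 TPM in replicate 2. Slc2a1, the transporter GLUT1 of vessels and glia and not among the 41, had 58.8 and 41.5 TPM. Slc2a3 thus made up 54.6% of the sum of both genes in replicate 1 and 62.2% in replicate 2, the widest gap between the animals among the shares of the 13 gene families. In the second transcript table the same shares were 47.8% and 53.7%, so which transporter was higher depended on the table in replicate 1.

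At the hexokinase step, the entry to glycolysis, Hk1 had 138.9 and 140.3 TPM. Hk2, the inducible hexokinase of muscle and fat, had 1.88 and 1.38 TPM. Hk1 therefore held 98.7% of hexokinase TPM in replicate 1 (exact binomial 95% interval 98.5 to 98.9%) and 99.03% in replicate 2 (98.9 to 99.2%). Such intervals cover counting error only. Within Hk1, the first transcript table assigned most of the level to the transcript with the mitochondrial-binding start printed above, Hk1-202, with 55.1% in replicate 1 and 52.5% in replicate 2. Hk1-201 followed with 27.4% and 30.5%, and Hk1-205 with 15.9% and 15.4%. The second table gave another order in both animals, Hk1-205 at 38.4% and 38.6%, Hk1-201 at 31.3% and 34.3%, and Hk1-202 at 27.3% and 24.9%. The 3 transcripts share exons and differ in length, so these shares are estimates that do not rest on the printed starts alone. The animals were closer to each other than the tables were.

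Gpi1, which turns glucose phosphate into fructose phosphate, had 295.8 and 287.1 TPM, the highest level of the upper glycolytic genes. In both tables a large part of it lay on transcripts that are not annotated as protein coding, 48.5% and 41.5% in the first table and 62.1% and 58.5% in the second. The coding transcript Gpi1-201 led in both tables with 43.5% and 47.3% in the first. In counts, not divided by length, its part was larger. It held 7205 of 10944 and 8525 of 12093 counts in the first table, and 6852 of 10734 and 7969 of 11861.5 in the second. Phosphofructokinase commits sugar to glycolysis and is built from the M, L and P subunits of 3 genes. Pfkm had 182.7 and 173.8 TPM, Pfkp 114.1 and 117.9 TPM, and Pfkl 61.95 and 63.5 TPM. Pfkm was thus the most abundant subunit message in both animals, with 50.9% and 48.9% of the summed level, before Pfkp with 31.8% and 33.2% and Pfkl with 17.3% and 17.9%. The order Pfkm, Pfkp, Pfkl was also found in the second table. Pfkfb2 and Pfkfb3 make and degrade the allosteric activator of phosphofructokinase. Pfkfb2 had 18.4 and 16.4 TPM and Pfkfb3 15.4 and 13.1 TPM, and both were lower in replicate 2 by TPM, though not when scaled to the ERCC total. Their levels were the lowest of the upper steps apart from Hk2, and Pfkfb2 held 54.5% and 55.6% of their sum. In expected counts, not divided by length, its share was 50.2% and 48.7%, so Pfkfb3 was the larger in replicate 2.

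**Figure D2:**
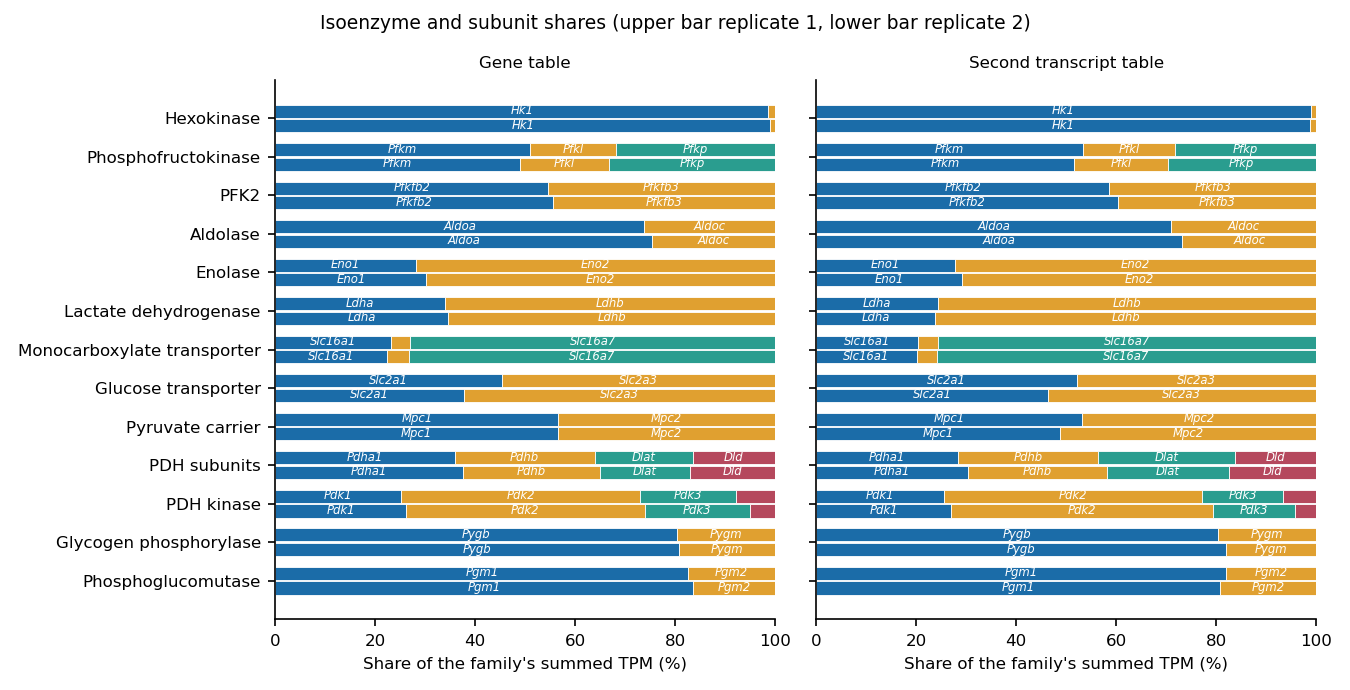
Share (%) of each gene in the summed TPM of its family, in the gene table (left) and the second transcript table (right), with the upper bar for replicate 1 and the lower for replicate 2. The leading gene is the same in both animals and both tables in 11 of the 13 families; Slc2a1 and Slc2a3 change order in replicate 1 between the tables, and Mpc1 and Mpc2 in replicate 2.

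The lower part of glycolysis held the highest levels. Gapdh, the triose phosphate dehydrogenase widely used as a reference gene, had 1082 and 1129 TPM, and Aldoa, the aldolase found in most tissues, 989.8 and 1029 TPM. Aldoc, the brain aldolase typical of astrocytes, had 352.5 and 336.9 TPM. Aldoa held 73.7% of aldolase TPM in replicate 1 and 75.3% in replicate 2. A further gene model also named Aldoa, which lies next to this locus without overlapping it, had only 1.25 and 1.27 TPM. Tpi1, which interconverts the triose phosphates, had 334.4 and 353.1 TPM. Pgk1, the kinase that makes the first ATP of the pathway, had 205.1 and 215.1 TPM, and Pgam1, the mutase after it, 251.8 and 261.3 TPM. Pkm, the last enzyme, had 511.5 and 526.65 TPM. By TPM, 7 of the 9 genes in this stretch had the higher value in replicate 2, and Aldoc and Eno2 in replicate 1. Of all genes with enough counts, 41.5% were higher in replicate 2 by TPM. The number was 8 of 9 on TMM-scaled counts and 9 of 9 scaled to the ERCC total. These scalings also shift all genes: their median log2 of replicate 2 over replicate 1 was -0.03 by TPM, 0.007 with TMM and 0.15 with ERCC totals.

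Enolase, the step before pyruvate kinase, is encoded by Eno1 in most cells and by Eno2 in neurons. Eno2 had 442.3 and 436.35 TPM and Eno1 173.1 and 188.8 TPM, so that Eno2 was 2.56 and 2.31 times as high. Its share of both was 71.9% (71.3 to 72.4%) in replicate 1 and 69.8% (69.2 to 70.3%) in replicate 2, with intervals that do not overlap. A row of its own, Eno1b, a copy of Eno1 on chromosome 18, had 137.9 and 138.0 TPM in the gene table. Eno1 shared 1138 of its 5573 windows of 100 bases with transcripts of other genes, and 1129 of these with Eno1b, so reads of the 2 could be split between them. With Eno1b counted as Eno1, Eno2 was 1.42 and 1.34 times as high. In all of these countings Eno2 was the larger part in both animals, although its size depended on the treatment of Eno1b. In the second transcript table, which gave Eno1 8470 counts in replicate 1 against 6442 in the gene table, Eno1b received 3156 counts against 4573.

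Sequence shared with other genes was then counted for all members, because reads from such stretches can be assigned in more than 1 way. For 28 of the 41 genes no 100-base window of any transcript occurred in another gene, and 6 genes had more than 10% of their windows shared. Over all its annotated transcripts, Pgk1 had 51.7%, Pgam1 33.9%, Gapdh 20.9%, Eno1 20.4%, Pfkfb2 14.5% and Pkm 12.3%. Within the leading transcript of the first transcript table alone, the shared part was 71.9% for Gapdh, 67.0% for Pgk1 and 59.0% for Eno1. It was 39.7% for Pgam1, 39.2% for Pfkfb2 and 8.65% for Pkm. By that measure Mpc1 with 22.1% and Pdhb with 10.5% also passed 10%. Gapdh shared windows with 84 other genes, more than any other member. The counts of the 2 tables differed most for Gapdh, for which the second table had 1.79 times the counts of the gene table, and for Eno1 with 1.31 times, against a median of 1.07 over 14274 genes. Pgk1, with the largest shared part over all transcripts, had a ratio of 1.05, near that median. Of 13 pseudogene or copy rows named after a member, 3 reached 1 TPM in both animals. Besides Eno1b these were Mpc1-ps, with 31.0 and 30.1 TPM, and Pgam1-ps2, with 18.0 and 17.05 TPM; in the second table Mpc1-ps had 0 counts in both animals and Pgam1-ps2 4.89 and 0.

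**Figure D3:**
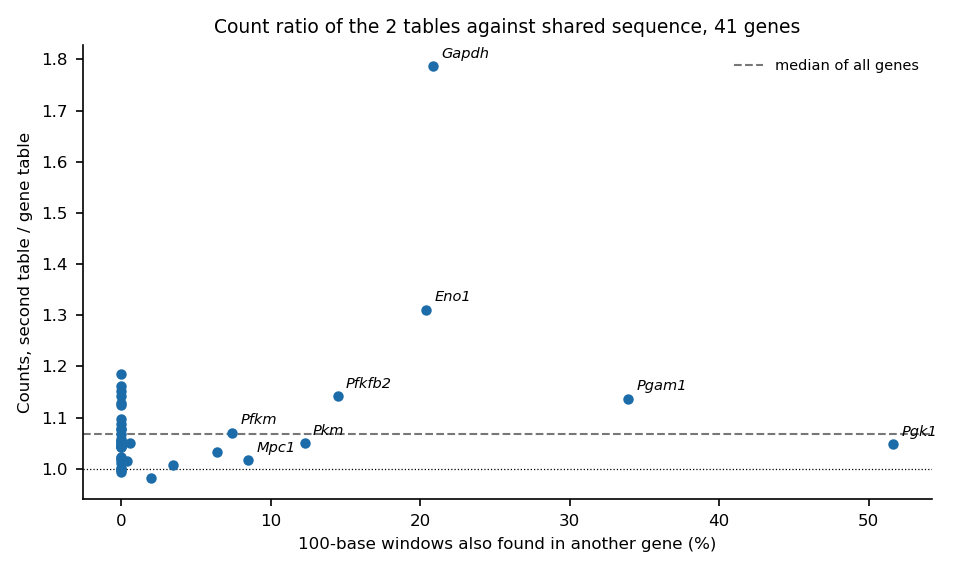
Ratio of a gene's counts in the second transcript table to those in the gene table, over both animals, against the share (%) of its 100-base windows that also occur in another gene, for 41 genes; the dashed line is the median of all genes. Gapdh (1.79) and Eno1 (1.31) lie apart, while Pgk1, with the largest shared share, lies at 1.05.

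The tables also divided Gapdh differently among its 13 transcripts. In the first transcript table Gapdh-208, a transcript of 483 bases annotated as not protein coding, held 66.0% of the gene's TPM in replicate 1 and 67.0% in replicate 2, and the full-length coding Gapdh-201 held 32.4% and 31.3%. In expected counts of that table, not divided by length, Gapdh-201 led with 8284 and 9329, before Gapdh-208 with 5520 and 6539. In the second table Gapdh-208 and Gapdh-201 were both at 0, and Gapdh-203, Gapdh-207 and Gapdh-209 held 29.6%, 37.2% and 26.9% in replicate 1. Of the windows of Gapdh-201, 85.8% occurred in other genes, and of those of Gapdh-208, 71.9%. The animals had near-equal shares within each table, so replicates do not reveal this difference, and the level of Gapdh rests on the table: it was 3649 and 3736 TPM in the second. The TPM of the second table was 1.58 times that of the gene table in the median over 14274 genes, and 3.34 times for Gapdh.

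The 41 genes have 311 annotated transcripts. In each animal taken alone, 32 of the 41 had the same leading transcript in both tables, and in 29 it was the same in both tables and both animals. The leading transcript differed between the tables in both animals for 6 genes, Hk1, Gapdh, Pkm, Ldha, Slc16a7 and Pdp1. For Pfkm, Bsg, Mpc2, Dlat, Slc16a3 and Gbe1 it differed in 1 animal only. By the mean of the animals, a single transcript held at least 80% of the level in 21 genes in the first table, and in 12 of them in both, among them Pgk1 (99.4% and 84.9%), Pgam1 (99.6% and 98.7%), Pdha1 (98.0% and 95.98%) and Pgm1 (99.3% and 99.7%) in the first and the second table. Ldha-202, with 96.9% of Ldha in the first table, held 36.9% in the second, where Ldha-201 led.

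Pkm had nearly equal shares of its forms. In the first transcript table Pkm-202, with the M1 exon, had 253.2 TPM in replicate 1 and 261.8 TPM in replicate 2, and Pkm-201, with the M2 exon, 242.8 and 254.5 TPM. Of the sum of both, the M1 form was 51.1% and 50.7%, a mean of 50.9 ± 0.24%. In the second table it was 46.5% and 45.2%, a mean of 45.8 ± 0.89%, with the M2 form the larger in both animals. The tables thus differed by more than the animals did, and which form was the larger depended on the table. Pkm-203, which also overlaps the M1 exon, held 0.45% and 0.18% of Pkm TPM in the first table and 0.70% and 0.38% in the second, and with it counted as M1 the M1 share was 51.3% and 50.8%, and 46.9% and 45.4%. All transcripts other than Pkm-201 and Pkm-202 held 3.02% and 1.97% of Pkm TPM in the first table and 7.29% and 10.4% in the second. Pkm-201 also extends 205 bases further at its start and 186 bases at its end than Pkm-202, so the shares do not rest on reads from the alternative exons alone. No read counts per exon were used here.

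**Figure D4:**
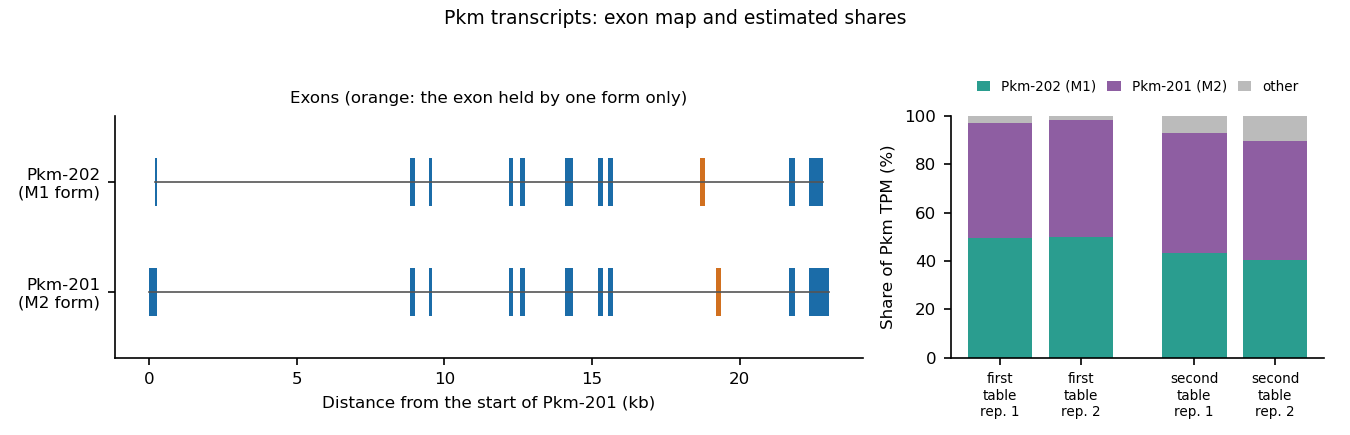
Left, exons of Pkm-202 (M1 form) and Pkm-201 (M2 form) by distance from the start of Pkm-201 in kb, with the alternative exon of each in orange; right, share (%) of Pkm TPM by transcript in each animal and table. The M1 form holds 49.5% and 49.7% of the gene in the first table and 43.1% and 40.5% in the second.

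Lactate dehydrogenase is a tetramer of the A and B subunits. Ldhb, typical of tissues that oxidise lactate, had 360.0 and 363.6 TPM, and Ldha, typical of tissues that release it, 184.5 and 192.2 TPM. Ldhb was 1.95 times as high as Ldha in replicate 1 and 1.89 times in replicate 2, or 66.1% and 65.4% of the sum. In the second table the ratio was 3.12 and 3.21, although the counts of Ldhb there were only 1.03 times those of the gene table. That table placed 32.5% and 34.2% of Ldhb on Ldhb-202, a transcript of 437 bases, and 28.0% and 28.9% on Ldhb-203, of 867 bases, against 20.6% and 17.5%, and 0.53% and 0.37%, in the first. A count on a shorter transcript gives more TPM. In expected counts without division by length, Ldhb was 57.6% and 57.4% of the sum, so Ldhb was the larger on all 3 scales but by different amounts.

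Lactate leaves and enters cells through monocarboxylate transporters. Slc16a7 (MCT2), the neuronal high-affinity transporter, had 32.9 TPM in both animals. Slc16a1 (MCT1), found in vessels and glia, had 10.5 and 10.1 TPM. Slc16a3 (MCT4), an exporter of astrocytes and muscle, had 1.72 and 2.01 TPM on 60 and 83 counts. Slc16a7 made up 73.0% and 73.2% of the 3 together. Bsg, a membrane partner of some monocarboxylate transporters, had 275.2 and 293.8 TPM, and the 3 transporters summed to 45.1 and 45.0 TPM. Which of the 3 it partners here was not tested.

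Pyruvate enters the mitochondrion through a carrier of 2 subunits, and Mpc1 had 78.9 and 80.05 TPM and Mpc2 60.4 and 61.6 TPM. Mpc1 was 1.31 and 1.30 times Mpc2, while in the second table the ratio was 1.14 and 0.95. The pyruvate dehydrogenase complex turns pyruvate into acetyl-CoA. Pdha1, the X-linked catalytic alpha subunit, had 103.7 and 106.2 TPM, Pdhb, the beta subunit, 80.9 and 77.7 TPM, Dlat, the acetyl transferase, 56.7 and 51.2 TPM, and Dld, the lipoamide dehydrogenase shared with other complexes, 47.6 and 48.3 TPM. The order was the same in both animals. Dlat carried 44.3% and 37.6% of its TPM on transcripts not annotated as coding in the first table, and 67.5% and 61.1% in the second. In counts that part was smaller. The coding Dlat-201, of 4035 bases, held 2506 of 2832 and 2835 of 3117 counts in the first table. In the second it held 2699 of 3164 and 3110 of 3527.

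Pyruvate dehydrogenase kinases switch the complex off, and phosphatases switch it on. Pdk2, the broadly expressed kinase, had 39.7 and 38.15 TPM and was the highest of the 4 by TPM. Pdk1 had 20.9 and 20.8 TPM and Pdk3 16.0 and 16.8 TPM. Pdk4, the kinase induced by fasting and glucocorticoids, had 6.46 and 3.99 TPM. Pdk2 thus held 47.8% and 47.9% of kinase TPM, and Pdk4 7.78% and 5.01%. In expected counts, not divided by length, Pdk1 led with 40.5% and 41.5%, before Pdk2 with 38.1% and 37.1%. Pdp1, the catalytic subunit of the phosphatase, had 98.6 and 90.2 TPM, which was 2.48 and 2.36 times Pdk2. It was 1.19 and 1.13 times the 4 kinases together in the gene table, but 0.98 and 0.86 times in the second, so no order of phosphatase and summed kinases held across the tables.

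Glycogen genes had the lowest median level of the functional groups. Pygb, the brain form of glycogen phosphorylase, which breaks glycogen down, had 52.7 and 49.1 TPM, and Pygm, the muscle form, 12.9 and 11.7 TPM. Pygb made up 80.3% (79.0 to 81.6%) and 80.7% (79.5 to 81.9%) of the 2, with overlapping intervals. Gys1, the glycogen synthase of tissues other than liver, had 7.51 and 6.88 TPM, and Gbe1, the branching enzyme, 4.77 and 4.58 TPM. Pygb was 7.01 and 7.14 times Gys1, so the phosphorylase message was above the synthase message in both animals. Phosphoglucomutase links glycogen to glycolysis: Pgm1 had 20.1 and 22 TPM, Pgm2 4.21 and 4.33 TPM, and Pgm1 was 82.7% and 83.6% of their sum.

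Between the animals, the members differed little. On log2 of TPM + 0.5, replicate 2 over replicate 1, 22 members were higher and 19 lower in replicate 2, where 41.5% of all genes tested were higher. The split was 27 to 14 on TMM-scaled counts, which move the median of all genes to 0.007. It was 39 to 2 on counts scaled to the ERCC total, which moves that median to 0.15. By TPM, the median of the members was 0.01, against -0.03 over the 18136 genes that averaged 10 or more expected counts. The median size of the difference without sign was 0.06 for the members, of which 30 of the 41 lay within 0.1. It was 0.09 for 13375 genes with a mean count no lower than that of the lowest member. Those genes were not otherwise matched to the members in counts, so the values do not compare genes of equal depth. No member was more than 1.2-fold higher in replicate 2, where 7.45% of all 18136 genes were, and 2 of 41, Hk2 and Pdk4, were more than 1.2-fold lower, where 12.5% of all were. With 1 library on each side there is no p-value, and the intervals that follow are exact binomial 95% counting intervals on TMM-scaled counts.

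Hk2 fell from 176 to 139 counts, and its TPM difference was -0.34. On TMM-scaled counts it was -0.46, with an interval from -0.80 to -0.14 that lies below 0. In the second table the sign turned, with 2.45 TPM in replicate 1 and 2.73 in replicate 2, a log2 difference of 0.13, although its counts there, 194 and 166, were lower in replicate 2 as well. The coding Hk2-201 had 2.39 and 1.82 TPM there. Hk2-202, of 594 bases and not annotated as coding, had 0 and 0.91 TPM on 0 and 3.99 counts. Pdk4 had 264 and 232 counts. Its TPM difference of -0.63 was larger in size than that on TMM-scaled counts, -0.31 (-0.57 to -0.05), and scaled to the ERCC total it was -0.16, within 1.2-fold. Of its level, 2.66 TPM in replicate 1 and 1.05 TPM in replicate 2 lay on Pdk4-202, a 412-base transcript with a retained intron and only 16.7 and 7.38 counts, while the full-length Pdk4-201 had 3.60 and 2.95 TPM. The glucocorticoid-responsive markers Fkbp5, Zbtb16, Tsc22d3 and Per1 were also more than 1.2-fold lower in replicate 2 by TPM, and Sgk1 was not. Their part in the difference of Pdk4 was not tested.

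The counting interval lay above 0 for 15 of the 41 members, against 11.0% of all 18136 genes, and below 0 for 3, against 10.6%. These intervals narrow with the number of counts, and the median of the mean counts was 3892 for the members and 369 for all genes tested. Of the 15, Eno1 differed by 0.12 on TPM and 0.17 on TMM-scaled counts (0.12 to 0.21), Bsg by 0.09 and 0.13 (0.08 to 0.18), and Pgm1 by 0.13 and 0.17 (0.04 to 0.30). Of the 3, Pdp1, beside Hk2 and Pdk4, was lower by both measures, -0.13 on TPM and -0.09 on scaled counts (-0.14 to -0.04), but at 0.06 when scaled to the ERCC total. Slc16a3 had the widest interval, from -0.15 to 0.85 around 0.34, on its 60 and 83 counts. How far animals of this group vary cannot be read from 2 libraries.

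**Figure D5:**
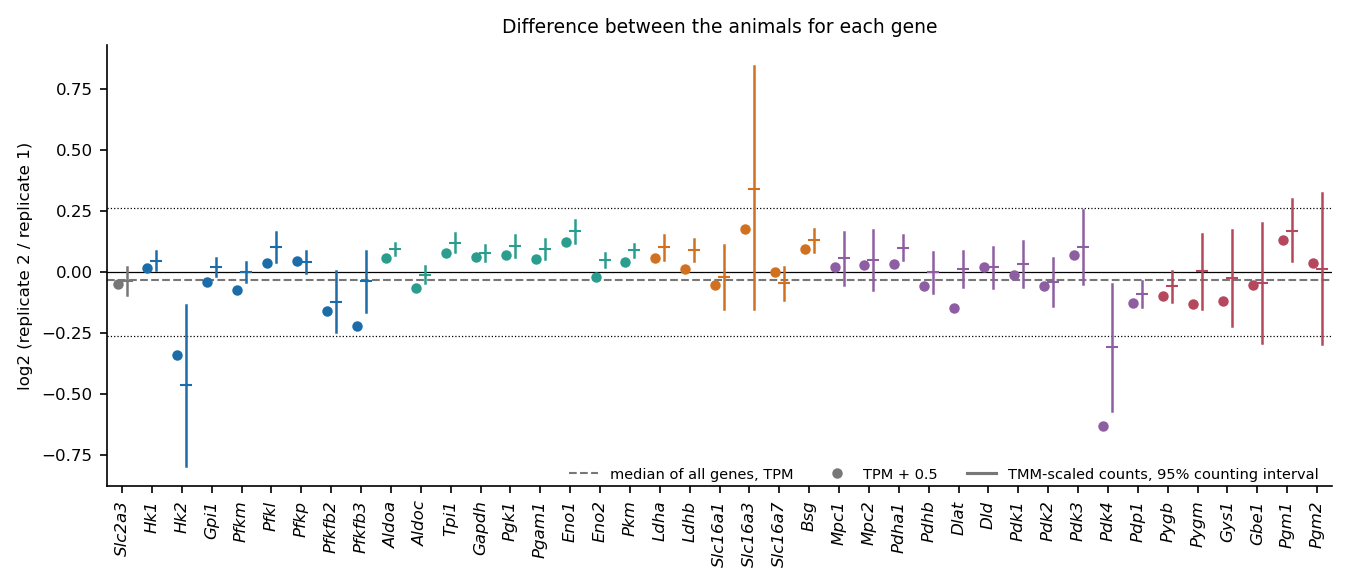
Log2 difference of replicate 2 over replicate 1 for each gene, from TPM + 0.5 (circles) and from TMM-scaled counts (short bars, with lines for the exact binomial 95% counting interval); dotted lines mark 1.2-fold and the dashed line the median of all genes. Hk2 and Pdk4 are the 2 circles beyond the dotted lines, and Slc16a3 has the widest interval.

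Other genes of these pathways, 87 in all, were read from a separate list, and 68 of them reached 1 TPM in both animals. Of 75 with enough counts, 6 were more than 1.2-fold higher in replicate 2 and 8 more than 1.2-fold lower. Over all 18136 genes tested, 7.45% were higher and 12.5% lower by that fold. Among 7 transporters and partners, 6 were detected, led by Slc2a1, the inositol transporter Slc2a13 (49.0 and 47.5 TPM) and Emb (12.8 and 13.1 TPM), another partner of lactate transporters; Slc16a8, typical of retinal pigment epithelium, was under 1 TPM. Of 18 paralogs and side enzymes of glycolysis, 10 were detected. The glycerol phosphate dehydrogenases Gpd2 (40.3 and 43.2 TPM) and Gpd1 (38.1 and 37.7 TPM) and the bisphosphoglycerate mutase Bpgm (28.6 and 33.3 TPM) led, and among those that did not reach 1 TPM in both were the isoenzymes Hk3, Gapdhs, Pgk2, Pklr, Pfkfb1 and Eno4. Of these, the testis isoenzymes Gapdhs and Pgk2 had at most 1 count and Pklr, the pyruvate kinase of liver and red cells, had 0 in both; a count of 0 allows up to 3 counts, or 0.078 TPM in replicate 1 and 0.070 TPM in replicate 2 at a length of 2 kb. Of 3 lactate genes, Ldhd was at 3.36 and 3.37 TPM, and Ldhc, the testis form, and Ldhal6b were under 1 TPM.

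Of 12 further pyruvate genes, 11 were detected, and the malate-aspartate shuttle genes led, with Mdh1 at 384.1 and 397.2 TPM, Mdh2 at 170.7 and 170.1 TPM and Got1 at 151.35 and 153.2 TPM; Pdha2, the testis copy of Pdha1, had 0 counts. Of 7 gluconeogenic genes, G6pc3 (25.6 and 27.0 TPM) and Pck2 (11.9 and 11.1 TPM) were detected, and Fbp1, Fbp2, Pck1, G6pc and G6pc2 were not. Of 21 further glycogen genes, 19 were detected, led by the lysosomal glucosidase Gaa (96.2 and 101.4 TPM) and the kinases Gsk3a (97.8 and 98.0 TPM) and Gsk3b (78.2 and 77.5 TPM). The liver synthase Gys2 and Stbd1 were under 1 TPM, and the liver phosphorylase Pygl had 1.24 and 1.35 TPM, so it stood below Pygb and Pygm. All 7 pentose phosphate genes were detected, led by Tkt (69.4 and 68.2 TPM), Taldo1 (42.6 and 45.2 TPM) and Pgls (13.75 and 16.9 TPM). All 12 regulators were detected. Hnrnpa2b1 (193.6 and 184.4 TPM), Hnrnpa1 (94.7 and 95.7 TPM) and Srsf3 (54.8 and 49.4 TPM) led, all splicing factors known to act on the alternative Pkm exons, and Ptbp1, named here because it acts on them too, had 23.2 and 21.2 TPM and its neuronal paralog Ptbp2 49.7 and 47.4 TPM.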

How the data were processed

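Total RNA of left cerebral cortex was sequenced in 2 samples of 1 group, and each library had a gene table and 2 transcript tables. The deposited gene table and first transcript table hold expected counts, TPM, posterior mean TPM and percent of the gene's TPM per transcript (isoform percent), with interval bounds, under column names that RSEM writes, per the file headers. In the second transcript table the authors deposited estimated counts with TPM, and its column names are kallisto's. The build is mm10 with GENCODE M21 annotation, per the deposited list of each library's files; which aligner and which program versions were used is not given in the sources used here. TPM covers all rows of a file, abundant small RNAs and spike-ins included. The expected count totals given for the libraries cover all rows. Library sizes for TMM scaling cover annotated genes only, 30372235 and 33134263 counts. They omit the ERCC rows, with 131702 and 129524 counts, and rows that name no gene, 2.3e-05% and 3.0e-05% of all counts.

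Members were matched by symbol through the second transcript table to the gene table. Levels are TPM in each animal. Shares are a gene's part of its family's TPM, with exact Clopper-Pearson 95% intervals from expected counts rescaled by effective length. Each difference is the log2 ratio of replicate 2 to replicate 1 after 0.5 was added to both TPM values, so changes of low genes are understated. The background is every gene averaging 10 or more expected counts. Counting intervals used counts rounded to whole numbers and scaled by TMM factors (edgeR 4.0.16); DESeq2 1.42.0 size factors and ERCC totals were alternatives. Intervals and floors cover counting error only. Of these steps, only the TMM-scaled differences and their counting intervals were tested on simulated counts, which held counting error alone. Software was R 4.3.3 and Python 3.11.15 with pandas 2.3.3, numpy 2.4.6, matplotlib 3.10.9 and scipy 1.17.1. All 41 members are named; of other pathway genes, the 3 highest and those under 1 TPM of each role, and of pseudogene or copy rows those at 1 TPM in both animals. Some genes of these lists are not reported here by name. Members, lists, families and thresholds were chosen with earlier results of these data known.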

Additional observations from a re-analysis of the deposited data

How the results depend on the processing

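No paired analysis was possible because there is 1 group. Levels in the second transcript table and after removal of small RNA rows lay outside the spread of the animals for all 41 genes, so levels are comparable only within a table. The number of genes apart by more than 1.2-fold was 2, also with other pseudocounts or no count filter. It was 3 with TMM or DESeq2 scaling, which add Slc16a3 as higher, and 1 (Pdk4) in the second table. With ERCC totals it was 6, with Hk2 lower and Tpi1, Eno1, Slc16a3, Bsg and Pgm1 higher. Of all genes tested, 7.45% were more than 1.2-fold higher and 12.5% lower at the main setting. These shares were 10.3% and 12.3% with TMM, 10.5% and 12.3% with DESeq2, and 9.33% and 14.3% in the second table. With ERCC totals they were 23.3% and 7.97%. The median difference of the members was 0.18 with ERCC totals, where all genes moved to 0.15, and 39 of 41 members were then higher. Of Hk2 and Pdk4, the genes past 1.2-fold, Hk2 changed sign in the second table, to 0.13, and kept its sign under the other settings. In the second table the shares of families moved to 52.5% for Pfkm, 59.5% for Pfkfb2, 72.1% for Aldoa, 76.0% for Ldhb, 75.8% for Slc16a7, 50.8% for Slc2a3, 51.0% for Mpc1, 29.3% for Pdha1, 52.1% for Pdk2, 81.2% for Pygb and 81.4% for Pgm1, and the Pkm M1 share to 45.8%. Shares of expected counts, not divided by length, were 42.8% for Pfkm, 49.4% for Pfkfb2, 70.4% for Aldoa, 72.6% for Eno2, 57.5% for Ldhb, 76.8% for Slc16a7, 63.9% for Slc2a3, 55.2% for Mpc1, 44.4% for Pdha1, 37.6% for Pdk2, 84.8% for Pygb and 85.1% for Pgm1. With Eno1b counted as Eno1, a choice made after its value was seen, as was the count of shared windows, Eno2 held 57.9%. Apart from construction of the count shares, the cause of these changes was not tested.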
